A study of Mus musculus with 11 samples.

Results

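Alpha-fetoprotein (Afp) is a plasma protein of the fetal liver that hepatocellular carcinoma often makes again. Livers with a high Afp level were compared here by their response to anti-PD-1 treatment, which blocks a receptor that restrains T cells. One side holds the responder libraries with an Afp level of at least 20 CPM (the gene's share of all gene counts, as CPM is usually scaled), which are 2 of 6 responders (replicates 4 and 6). The other side holds all 4 non-responder libraries, so 6 of the 11 libraries of the series enter the comparison. All mice were FVB/NJ with hepatocellular carcinoma in the liver, induced by expression of the receptor tyrosine kinase MET and of β-catenin, the effector of Wnt signalling, in a model that the submitters call a synthetic transgenic mouse. Both sides carry the anti-PD-1 treatment label and differ in the response label only. The labels used here give no age, sex, dose or time of sampling, no promoter for the 2 drivers, and nothing ties each library to a mouse of its own, so p-values reflect the spread among these libraries, which may be technical. The 4 responders with low Afp (replicates 1, 2, 3 and 5) and 1 library whose response label names no treatment, although its treatment label names the antibody, are given as a description.

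The responder libraries were chosen by the Afp level, as a share of all gene counts, so it is given without a test. It was 127 CPM in responder replicate 4 and 99.1 CPM in responder replicate 6, the library closest to the threshold on its upper side. It was 123 CPM, 287 CPM, 193 CPM and 388 CPM in non-responder replicates 1 to 4. The 4 responders left out had between 1.34 and 2.38 CPM, and the highest of them, replicate 3, is the library closest to the threshold on its lower side. The library with no treatment had 1.66 CPM. The 2 sides therefore overlap in Afp only through non-responder replicate 1. Non-responder replicates 2 to 4 stood above both responders, so the sides are not matched in Afp level. A wide gap lies on both sides of the threshold.

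**Figure D1:**
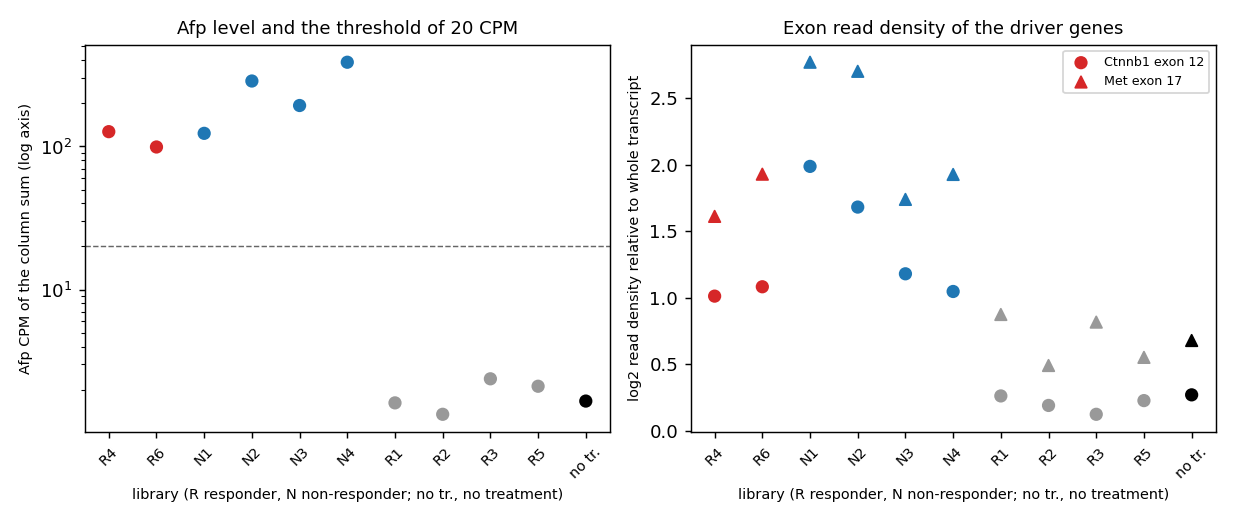
The left panel plots the Afp level of each library (CPM of all gene counts, log axis) with the threshold of 20 CPM as a dashed line. The right panel plots the log2 read density of Ctnnb1 exon 12 (circles) and Met exon 17 (triangles) relative to the whole transcript. Red marks Afp-high responders, blue non-responders, grey the other responders and black the library with no treatment. Afp-high responders stand near non-responder replicates 3 and 4 in both exons, and non-responder replicates 1 and 2 stand higher. Coverage in replicate 1 is shifted to the 3′ side, where both exons lie.

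Gene counts summed to 17876515 in responder replicate 4, 40565708 in responder replicate 6 and between 25542066 and 39941835 in the non-responders. Hepatocyte transcripts led in all 6 livers: albumin (Alb) stood at 62754 and 55457 CPM in the responders and between 76675 and 90885 CPM in the non-responders. Coverage in non-responder replicate 1 was shifted to the 3′ side of transcripts (log2 index 1.25 over 3970 genes, against -0.07 to 0.13 in the other 10 libraries). The read density of Ctnnb1 exon 12 (mm10 chr9:120957517-120957667) relative to the whole transcript was 1.01 and 1.08 on the log2 scale in the responders and 1.99, 1.68, 1.18 and 1.05 in non-responder replicates 1 to 4. It was 0.13 to 0.26 in the responders with low Afp. Met exon 17 (mm10 chr6:17555547-17555627) gave 1.61 and 1.93 in the responders and 2.77, 2.70, 1.74 and 1.93 in the non-responders. Non-responder replicates 1 and 2 were thus higher in both exons than all other libraries, and the part this has in the results that follow was not tested. Both exons lie toward the 3′ end (12 of 15 and 17 of 22 exons). In replicate 1 a higher exon density therefore cannot be told apart from its 3′ shift.

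Interferons bind cell surface receptors and act through STAT and IRF transcription factors. Type I interferons raise antiviral enzymes such as the OAS and IFIT families, and interferon-gamma, made by activated T and natural killer cells, raises guanylate-binding proteins, immunoproteasome subunits and the machinery of antigen presentation. Tumour cells and myeloid cells answer interferon-gamma by making PD-L1, the ligand of PD-1 encoded by Cd274. In hepatocytes, Wnt and β-catenin set the perivenous gene programme, growth hormone pulses set the sex-biased one, and BMP and inflammatory signals control hepcidin, the hormone that limits iron export.

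Across 18287 genes tested, 0 passed edgeR's quasi-likelihood test at an adjusted p of 0.05 (0% called), and the smallest adjusted p was 0.514. At an unadjusted p under 0.05 there were 1396 genes (7.63%), 520 of them higher in the responders (2.84%) and 876 lower (4.79%). Both responders stood above all 4 non-responders in 2102 genes (11.5%) and below all 4 in 1930 genes (10.6%). DESeq2 called 41 genes higher (0.233%) and 123 lower (0.7%), limma-voom called 0, and limma-voom with quality weights called 4 higher and 10 lower. Without non-responder replicate 1, edgeR again called 0 of 17936 genes, with 1333 higher (7.43%) and 1635 lower (9.12%) at an unadjusted p under 0.05. Leaving out non-responder replicate 2 in place of it gave 309 higher and 588 lower at that level. With responder replicate 6 as the lone responder they were 180 and 330, and 1 gene was called by edgeR (Tsc22d2, higher). With responder replicate 4 alone they were 253 and 476, and in both cases the lone library is assumed to vary like the others. With all 6 libraries no gene passed the edgeR test, so each is given by its values, and folds are log2 fold changes of responders minus non-responders with their standard errors.

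**Figure D2:**
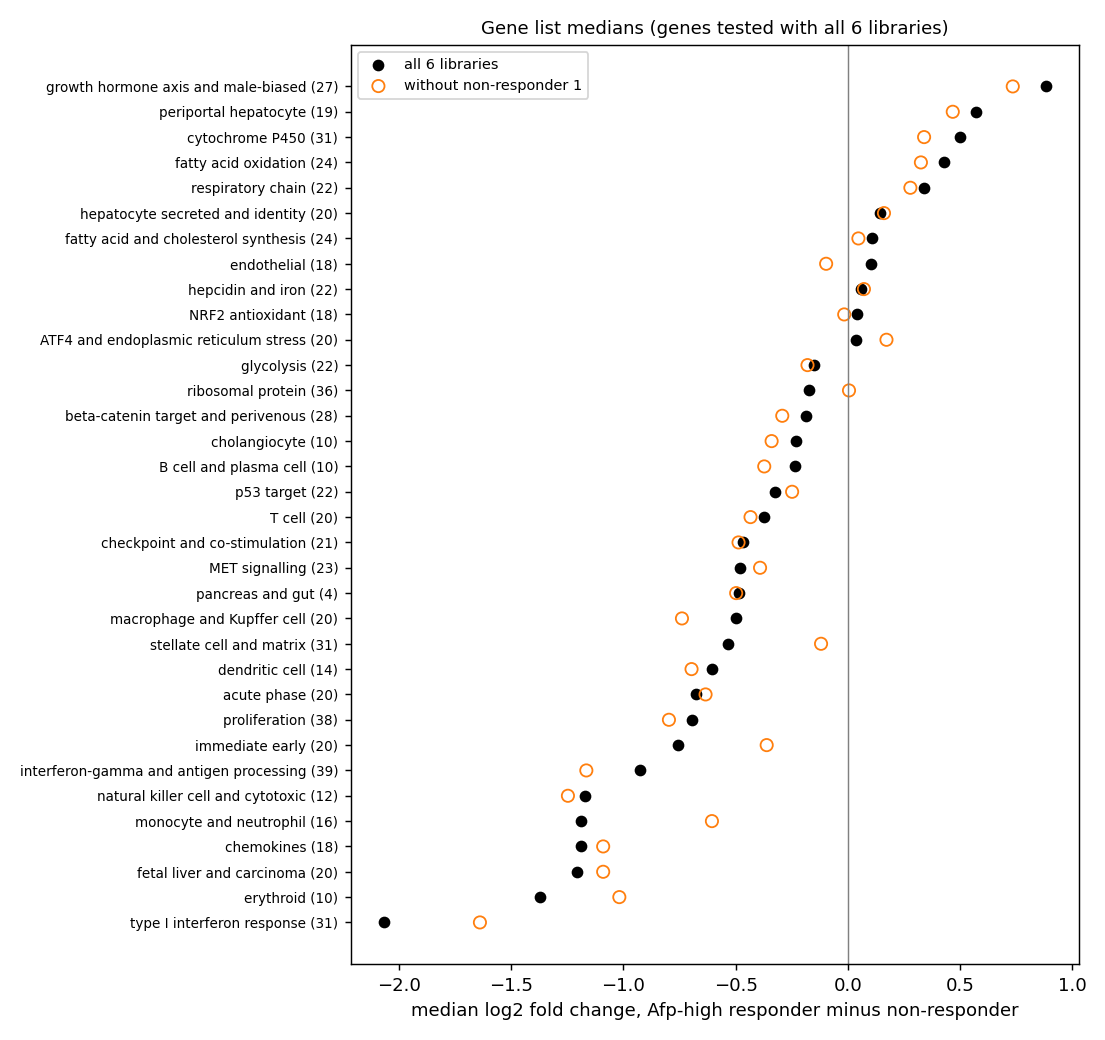
Median log2 fold change (Afp-high responders minus non-responders) of each gene list, with the number of genes tested in brackets. Black points use all 6 libraries and open orange points leave out non-responder replicate 1. Type I interferon genes have the lowest median (-2.07, and -1.64 without that library), and the growth hormone list has the highest (0.88, and 0.73).

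Type I interferon genes had the lowest median fold of the 34 lists in Afp-high responders, and genes of the interferon-gamma response were also lower in the median. Of 31 type I interferon response genes, all tested, 22 stood below every non-responder in both responders and 0 stood above, beside 10.6% and 11.5% of all genes. At an unadjusted p under 0.05, 23 were lower (4.79% of all genes were) and 0 higher, and the median log2 fold change was -2.07, against -0.015 over all genes tested. Of 39 genes of the interferon-gamma response and antigen processing, 27 stood below every non-responder, 23 were lower at that p, and the median was -0.92. DESeq2 called 9 and 8 genes of these lists, all lower (0.7% of all genes were).

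Usp18 (ENSMUSG00000030107, mm10 chr6:121245906-121270916) removes the ubiquitin-like protein ISG15 from its targets and dampens type I interferon receptor signalling. It stood at 6.12 and 4.68 CPM in responder replicates 4 and 6 and at 34.9, 51.2, 23.6 and 24.6 CPM in non-responder replicates 1 to 4. Every non-responder was above both responders, and the responders were near the 2.12 to 5.02 CPM of the responders with low Afp. The edgeR fit gave it a log2 fold change of -2.65 ± 0.39 (SE) at an adjusted p of 0.514. Leaving out non-responder replicate 1 gave -2.62.

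Many other type I interferon genes separated the non-responders among themselves. Isg15, the ubiquitin-like modifier, stood at 10.2 and 7.04 CPM in the responders and at 76.3, 62.2, 10.9 and 19.3 CPM in the non-responders. Ifit1, an antiviral RNA-binding protein, stood at 3.005 and 3.81 CPM in the responders and at 22.3, 35.7, 4.66 and 5.97 CPM in the non-responders. Oas3, a sensor of double-stranded RNA, stood at 0.698 and 0.548 CPM against 14.2, 20.2, 0.695 and 1.25 CPM. In all 3 genes non-responder replicates 1 and 2 were high, and replicates 3 and 4 were close to the responders. In Oas3 the groups overlapped. These 2 high libraries are also the ones with the higher exon densities of Ctnnb1 and Met, which in replicate 1 cannot be told apart from its 3′ shift. Stat2, which carries the type I signal, overlapped between the groups (87.2 and 74.2 CPM against 61.1 to 90.2 CPM). Without non-responder replicate 1 the list median was -1.64, with 25 genes below the 3 other non-responders (20.1% of all genes were). In that fit 13 genes of the list were lower at an unadjusted p under 0.05 by edgeR (9.12% of all genes were).

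Several interferon-gamma genes were high in all 4 non-responders. Gbp2 (ENSMUSG00000028270, mm10 chr3:142620602-142638008), a guanylate-binding protein of cell-intrinsic defence, stood at 5.74 and 6.17 CPM in the responders and at 28.5, 85.1, 31.8 and 40.6 CPM in the non-responders. The edgeR fit gave it a log2 fold change of -2.96 ± 0.51 (SE) at an adjusted p of 0.514. Gbp3 (ENSMUSG00000028268, mm10 chr3:142560052-142573209), its neighbour, stood at 3.54 and 3.36 CPM against 12.98, 37.3, 17.9 and 27.0 CPM (log2 fold change -2.79 ± 0.45, SE, edgeR adjusted p = 0.514). The lowest non-responder was above both responders in each gene. Responders with low Afp reached 22.8 CPM in Gbp2 and 19.3 CPM in Gbp3, so low values were not common to all responders.

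The promoters of these 2 genes are shown because both hold the core of the interferon-stimulated response element. Each sequence gives the 250 bases before the RefSeq start site (build GRCm38.p6), read 5′ to 3′ on the gene's strand, with matches to GAAANNGAAA or its reverse complement TTTCNNTTTC in capitals. Gbp2 lies at chr3:142620413-142620662 and Gbp3, at the first of 2 start sites, at chr3:142559794-142560043, both on the plus strand.
Gbp2: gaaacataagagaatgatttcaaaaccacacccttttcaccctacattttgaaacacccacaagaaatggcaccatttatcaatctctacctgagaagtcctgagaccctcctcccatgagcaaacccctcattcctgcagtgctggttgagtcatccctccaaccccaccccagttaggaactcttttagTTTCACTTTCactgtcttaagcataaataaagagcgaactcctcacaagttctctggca
Gbp3: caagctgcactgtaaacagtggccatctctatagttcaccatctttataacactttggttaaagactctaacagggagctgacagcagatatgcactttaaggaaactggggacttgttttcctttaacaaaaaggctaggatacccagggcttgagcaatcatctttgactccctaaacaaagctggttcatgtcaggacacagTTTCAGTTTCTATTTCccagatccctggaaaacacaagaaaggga
Gbp3 has 2 matches that overlap each other, and its second start site has none in the window searched, which runs to 50 bases after the start. In that window, 13 of 22 type I interferon genes with a RefSeq promoter had a match, as did 13 of 26 genes of the interferon-gamma list, beside 3.99% of all 27025 genes. A match describes the letters only.

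Antigen processing genes followed the guanylate-binding proteins with smaller folds. Psmb8 (ENSMUSG00000024338, mm10 chr17:34197721-34201454), a catalytic subunit of the immunoproteasome, stood at 30.7 and 31.4 CPM in the responders and at 68.3, 63.7, 66.0 and 92.7 CPM in the non-responders (log2 fold change -1.23 ± 0.21, SE, edgeR adjusted p = 0.514). Nlrc5, the transactivator of MHC class I genes, stood at 25.6 and 33.4 CPM against 82.3, 60.5, 55.0 and 69.2 CPM. Both genes separated the groups without overlap. Tap1, the peptide transporter, stood at 29.9 and 27.1 CPM against 36.3 to 78.8 CPM, and the class I chain H2-K1 at 399 and 460 CPM against 539 to 911 CPM. The class II transactivator Ciita overlapped between the groups (6.17 and 4.26 CPM against 1.47 to 14.3 CPM). In Psmb8 a responder with low Afp reached 98.5 CPM, above every non-responder.

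Zbp1, a sensor of left-handed nucleic acids, and Mlkl, the executor of necroptosis, were also among the 12 lower genes with the smallest p. Zbp1 stood at 9.93 and 9.81 CPM in the responders and at 35.6, 42.5, 22.2 and 48.0 CPM in the non-responders. Mlkl stood at 5.85 and 7.47 CPM against 15.6, 24.8, 15.04 and 18.6 CPM. Both genes separated the groups without overlap. The remaining lower genes of that set were Gbp4, Uba7, which activates ISG15, the Fc receptor gene Fcgr4, Tmem71, Sult3a1 and Cyp2a4, with log2 fold changes between -2.92 and -1.18.

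**Figure D3:**
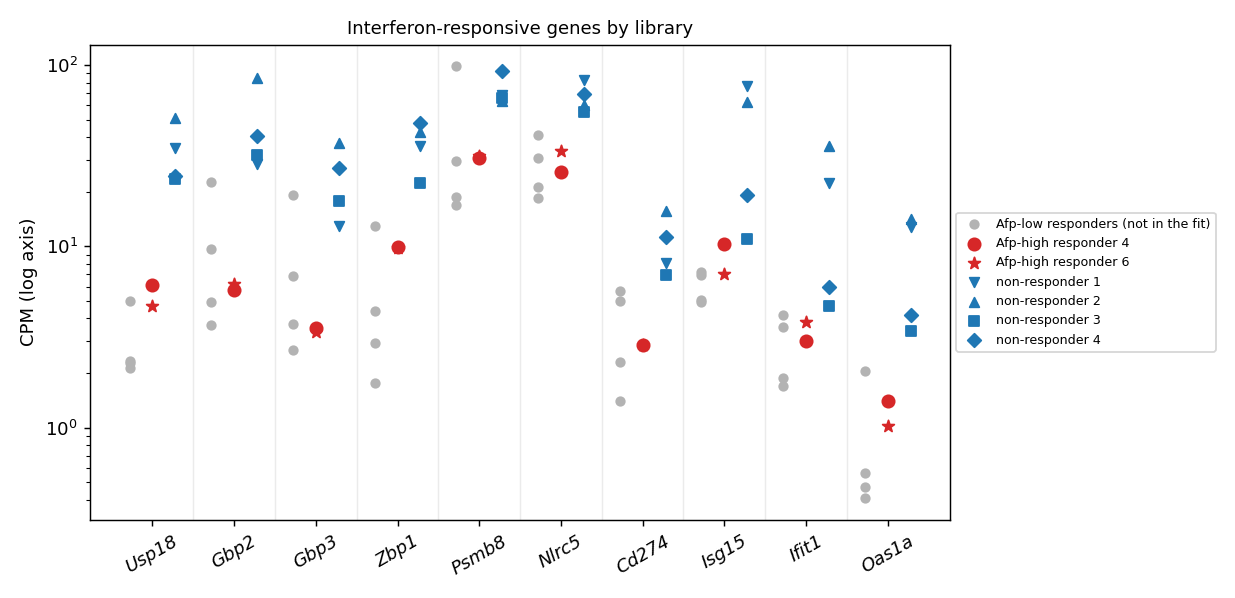
CPM (log axis) of 10 interferon-responsive genes in each library. Red marks the 2 Afp-high responders, blue the 4 non-responders by replicate and grey the 4 responders with low Afp, which are not in the fit. Usp18, Gbp2, Gbp3, Zbp1, Psmb8, Nlrc5 and Cd274 are high in all 4 non-responders, while Isg15, Ifit1 and Oas1a are highest in non-responder replicates 1 and 2.

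PD-L1 and several other checkpoint genes stood lower in the Afp-high responders. Cd274 (ENSMUSG00000016496, mm10 chr19:29367455-29388095), which encodes PD-L1, stood at 2.84 and 2.86 CPM in the responders and at 8.07, 15.6, 6.98 and 11.3 CPM in the non-responders. The edgeR fit gave it a log2 fold change of -1.88 ± 0.37 (SE) at an adjusted p of 0.588, and every non-responder was above both responders. Pdcd1, which encodes PD-1 itself, was near the limit of counting, at 0.0537 and 0.249 CPM against 0.351, 0.680, 0.901 and 0.502 CPM. Cd40, a co-stimulatory receptor of antigen-presenting cells, stood at 1.88 and 1.89 CPM against 2.55 to 5.63 CPM. Of 21 tested checkpoint and co-stimulation genes, 7 stood below every non-responder (10.6% of all genes did) and 1 above (11.5%). At an unadjusted p under 0.05 by edgeR, 7 were lower (4.79% of all genes were). The median log2 fold change was -0.47. The chemokine Cxcl9, which attracts T cells, stood at 20.7 and 28.3 CPM against 72.7, 172, 90.5 and 49.6 CPM, and 1 responder with low Afp reached 214 CPM.

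Immune cell markers had negative median folds in the T cell (-0.37), natural killer (-1.17), macrophage (-0.50), monocyte and neutrophil (-1.19) and dendritic cell (-0.61) lists. In these whole-tissue libraries, fewer cells of a type and less RNA per cell cannot be told apart. The summed level of 20 T cell markers was 38.4 to 39.3 CPM in the responders and 48.1 to 51.8 CPM in the non-responders, a sum in which Tcf7, also a Wnt target, took 14.9 and 15.3 CPM against 17.4 to 31.3 CPM. Cd3e, a chain of the T cell receptor complex, stood at 0.537 and 0.697 CPM against 0.281, 0.299, 1.004 and 0.803 CPM. Cd8a stood at 1.34 and 0.821 CPM against 0.456, 1.25, 2.47 and 0.928 CPM. Both genes overlapped between the groups, and 3 of 20 T cell genes stood below every non-responder (10.6% of all genes did), and 0 passed an unadjusted p of 0.05. Of 12 tested natural killer and cytotoxic genes, 6 stood below every non-responder (10.6% of all genes did). At an unadjusted p under 0.05 by edgeR, 4 were lower (4.79% of all genes were). Gzmb, a granule protease, stood at 0.322 and 0.324 CPM against 0.702, 1.39, 1.21 and 0.803 CPM. The summed level of that list was 5.10 to 8.46 CPM against 12.6 to 44.0 CPM, where Klrb1b alone took 27.2 CPM in non-responder replicate 2.

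Macrophage and Kupffer cell markers depended on non-responder replicate 1, in which they were low. Emr1, the file's symbol for the macrophage marker F4/80, stood at 9.23 and 6.65 CPM in the responders and at 0.912, 18.9, 17.9 and 17.2 CPM in the non-responders. Mpeg1, a pore-forming protein of macrophages, stood at 93.8 and 95.3 CPM against 79.5, 398, 291 and 285 CPM. In both genes the other 3 non-responders were above the responders. With all libraries, 1 of 20 genes of the list stood below every non-responder (10.6% of all genes did). Without replicate 1, 15 of 20 did (20.1% of all genes), and the list median went from -0.50 to -0.74. In that fit 12 were lower at an unadjusted p under 0.05 by edgeR (9.12% of all genes were). Of 16 monocyte and neutrophil genes 8, and of 14 dendritic cell genes 5, stood below every non-responder with all libraries (10.6% of all genes did). Among them Ltf, a neutrophil granule protein, and F13a1, a monocyte gene, had 0 and 0.0249 CPM and 0.0537 and 0 CPM in the responders, against 0.281 to 0.567 CPM and 0.351 to 1.05 CPM. The filter on low counts can pass such genes through the non-responders alone. The count and median of the monocyte and neutrophil list are therefore a description only. Without replicate 1, only 12 of those 16 monocyte and neutrophil genes passed the filter on low counts, with a median of -0.61.

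Immunoglobulin transcripts were higher in the responders, but the list of B cell and plasma cell markers was not. In that list 1 of 10 tested genes (Igj) stood above every non-responder and 1 below (11.5% and 10.6% of all genes did), and the median log2 fold change was -0.23. The plasma cell markers Mzb1 and Sdc1 overlapped between the groups. The summed level of 28 immunoglobulin gene segments, a group chosen after their values were seen, was 178 and 83.1 CPM in the responders and 23.2, 29.98, 64.4 and 31.2 CPM in the non-responders. Igkc, the kappa light chain constant segment, stood at 42.3 and 15.96 CPM against 4.35, 5.002, 12.7 and 4.61 CPM (log2 fold change 2.12 ± 0.52, SE, edgeR adjusted p = 0.641). Igj, the chain that joins secreted immunoglobulin, stood at 11.4 and 4.38 CPM against 0.702, 1.06, 4.17 and 1.28 CPM. Responder replicate 4 led in each of these measures, and replicate 6 lay close to non-responder replicate 3. Responders with low Afp had summed levels of 17.8 to 34.3 CPM. The B cell receptor gene Cd79a overlapped between the groups. Of the 28 segments 12 did not overlap, all of them higher, beside 11.5% of all genes. The filter on low counts can pass a segment through the 2 responders alone. As the group was also chosen after its values were seen, this count is a description only.

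Hepcidin transcripts were higher in the Afp-high responders. Hamp (ENSMUSG00000050440, mm10 chr7:30942371-30944017), which encodes hepcidin, stood at 473 and 451 CPM in the responders and at 44.9, 27.7, 115 and 107 CPM in the non-responders. The edgeR fit gave it a log2 fold change of 2.65 ± 0.52 (SE) at an adjusted p of 0.588. Hamp2 (ENSMUSG00000056978, mm10 chr7:30922372-30924181), the mouse paralogue, stood at 60.7 and 43.1 CPM against 10.7, 3.45, 15.6 and 12.8 CPM (log2 fold change 2.28 ± 0.48, SE, edgeR adjusted p = 0.601). Both genes separated the groups, with non-responder replicate 2 lowest. Responders with low Afp stood higher still, at 667 to 827 CPM for Hamp and 90.3 to 119 CPM for Hamp2. The 2 genes are close in sequence, so reads may be split between them.

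Their promoters are shown to compare the sites through which inflammation and BMP are known to act on hepcidin, the second printed after the values were seen. Each gives the 250 bases before the RefSeq start site on the minus strand, Hamp at chr7:30944030-30944279 and Hamp2 at chr7:30924182-30924431. Capitals mark the palindromic STAT motif TTCNNNGAA and the BMP response element core GGCGCC.
Hamp: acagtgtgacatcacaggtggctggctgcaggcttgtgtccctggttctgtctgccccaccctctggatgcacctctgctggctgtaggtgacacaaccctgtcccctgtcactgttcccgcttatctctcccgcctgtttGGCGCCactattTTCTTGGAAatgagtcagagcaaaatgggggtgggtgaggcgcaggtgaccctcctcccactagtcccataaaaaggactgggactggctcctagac
Hamp2: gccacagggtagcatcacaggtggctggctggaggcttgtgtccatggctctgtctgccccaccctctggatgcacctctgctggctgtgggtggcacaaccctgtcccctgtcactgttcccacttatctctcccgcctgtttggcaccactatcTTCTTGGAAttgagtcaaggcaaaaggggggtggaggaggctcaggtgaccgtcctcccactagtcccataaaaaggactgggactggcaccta
Hamp has both motifs and Hamp2 the STAT motif alone in these letters. Over all genes, 9.55% had the STAT motif and 13.4% the BMP core in the window from 250 bases before to 50 after a start site.

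Other iron genes lay on both sides. Bmp6, the ligand that raises hepcidin, stood at 7.03 and 3.53 CPM in the responders and at 0.737, 1.66, 3.09 and 3.34 CPM in the non-responders. The iron sensor Tfr2 stood at 344 and 348 CPM against 202 to 316 CPM, and Tmprss6, a protease that restrains hepcidin, at 550 and 516 CPM against 323 to 453 CPM. All 3 were higher in both responders than in any non-responder, with log2 fold changes of 1.24, 0.40 and 0.42. Hfe2, a BMP co-receptor that also raises hepcidin, stood lower (-0.54). Several secreted carriers were lower too. Transferrin (Trf) stood at 15004 and 17115 CPM against 21630 to 36571 CPM, with 63.5% of its exon bases shared with Gm20425, and ceruloplasmin (Cp) at 1403 and 1662 CPM against 2388 to 4641 CPM. Lcn2, a siderophore-binding acute phase protein, stood at 37.7 and 45.03 CPM against 342, 582, 111 and 87.7 CPM. Of the 22 iron genes, 7 stood above every non-responder (11.5% of all genes did), 6 below (10.6%), and 9 overlapped.

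Of 20 acute phase genes, 7 stood below every non-responder (10.6% of all genes did) and 1 above (11.5%), with a median log2 fold change of -0.68. A2m, a protease inhibitor, stood at 0.429 and 0.697 CPM in the responders and at 125, 128, 5.95 and 3.69 CPM in the non-responders. Fgl1, a secreted ligand of the checkpoint receptor LAG-3, stood at 116 and 150 CPM against 500, 714, 219 and 187 CPM. Non-responder replicates 1 and 2 again stood far above replicates 3 and 4. Orm1, another acute phase protein, was the exception, at 189 and 248 CPM against 124 to 168 CPM.

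Several genes of protein folding in the endoplasmic reticulum stood higher in the Afp-high responders, but with all 6 libraries the median of their list was small. Of the 20 genes of their list, 9 stood above every non-responder (11.5% of all genes did) and 2 (Psat1 and Trib3) below, near the 10.6% of all genes. At an unadjusted p under 0.05 by edgeR, 4 were higher and 4 lower (2.84% and 4.79% of all genes were). The median log2 fold change of the list was 0.035. Without non-responder replicate 1 it was 0.17, with 10 genes above the other 3 non-responders and 2 below (19.1% and 20.1% of all genes). In that fit 7 genes were higher and 0 lower at an unadjusted p under 0.05 by edgeR (7.43% and 9.12% of all genes). The list was defined for endoplasmic reticulum stress and for ATF4, the factor of the amino acid response. The 9 include Creld2, the chaperones Hspa5, Hsp90b1, Dnajb9 and Pdia4, and Herpud1 and Edem1 of the degradation pathway. Hyou1, Syvn1 and Derl3 are outside that list and were named for their small p. Hyou1, a chaperone of the lumen, stood at 552 and 457 CPM in the responders and at 168, 275, 186 and 232 CPM in the non-responders (log2 fold change 1.22 ± 0.25, SE, edgeR adjusted p = 0.588). Creld2 (ENSMUSG00000023272, mm10 chr15:88819646-88826681), a stress-induced folding factor, stood at 129 and 97.6 CPM against 46.4, 62.1, 31.6 and 41.3 CPM. Syvn1, the ubiquitin ligase of the degradation channel, stood at 228 and 240.4 CPM against 114, 105, 70.7 and 91.0 CPM. These 3 genes separated the groups. Derl3 (ENSMUSG00000009092, mm10 chr10:75893398-75895941), a channel subunit, stood at 11.8 and 6.70 CPM against 1.44, 2.23, 1.65 and 2.76 CPM (log2 fold change 2.18 ± 0.34, SE, edgeR adjusted p = 0.514). The level was not shared by all responders: among those with low Afp, replicate 5 stood at 569 CPM for Hyou1 and 126 CPM for Creld2, and the other 3 at most at 221 CPM for Hyou1.

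The promoters of Creld2 and Derl3 are shown because both hold the endoplasmic reticulum stress element, a motif searched after the values were seen. Each gives the 250 bases before the RefSeq start site on the plus strand, Creld2 at chr15:88819396-88819645 and Derl3 at chr10:75893148-75893397. Capitals mark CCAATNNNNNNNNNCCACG or its reverse complement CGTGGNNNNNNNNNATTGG.
Creld2: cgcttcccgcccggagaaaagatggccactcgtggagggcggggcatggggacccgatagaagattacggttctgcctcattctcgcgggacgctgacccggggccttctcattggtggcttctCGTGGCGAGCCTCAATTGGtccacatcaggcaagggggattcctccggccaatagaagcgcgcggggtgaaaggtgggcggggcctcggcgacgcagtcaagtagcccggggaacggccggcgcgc
Derl3: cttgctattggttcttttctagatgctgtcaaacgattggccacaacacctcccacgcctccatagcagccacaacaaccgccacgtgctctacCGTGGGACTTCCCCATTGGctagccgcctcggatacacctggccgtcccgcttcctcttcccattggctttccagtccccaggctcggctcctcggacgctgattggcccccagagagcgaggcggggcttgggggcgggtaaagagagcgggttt
In both the match lies in the reverse direction. The motif was found in 3 of the 20 genes of the list and in 0.137% of all genes.

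A few amino acid response genes of that list stood lower. Psat1, an enzyme of serine synthesis, stood at 19.3 and 19.2 CPM in the responders and at 38.3, 78.7, 22.8 and 39.5 CPM in the non-responders. Trib3, a pseudokinase, stood at 11 and 8.86 CPM against 43.6, 31.8, 12.2 and 15.5 CPM. Asns, asparagine synthetase, stood at 5.31 and 5.30 CPM against 25.1, 53.9, 4.51 and 12.3 CPM. Psat1 and Trib3 did not overlap and Asns did. Ddit3, another target of ATF4, had a log2 fold change of 0.04, and Atf4 itself stood at 104 and 91.1 CPM against 70.6 to 149 CPM.

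**Figure D4:**
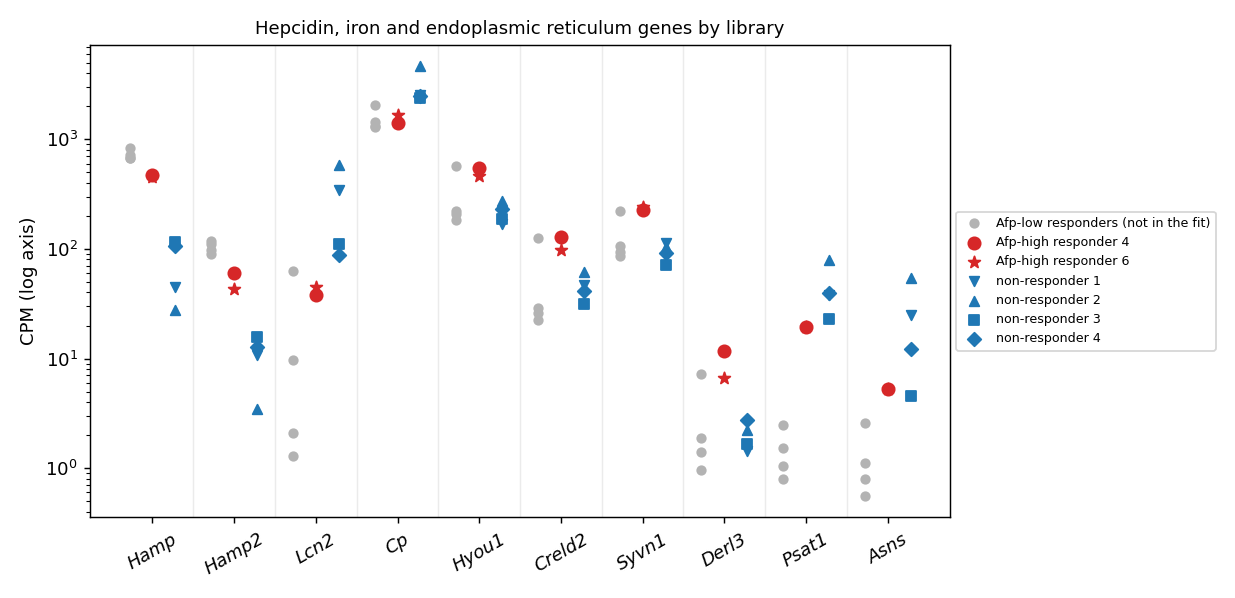
CPM (log axis) of hepcidin, iron and endoplasmic reticulum genes in each library, with red for the 2 Afp-high responders, blue for the 4 non-responders by replicate and grey for the 4 responders with low Afp. Hamp, Hamp2, Hyou1, Creld2, Syvn1 and Derl3 stand higher in both Afp-high responders than in every non-responder, and Lcn2, Cp and Psat1 lower.

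Sex-biased and growth hormone genes lay on both sides. Of 27 tested genes of the growth hormone axis, 12 stood above every non-responder (11.5% of all genes did) and 5 below (10.6%), and the median log2 fold change was 0.88. At an unadjusted p under 0.05 by edgeR the balance was the opposite, with 3 higher and 7 lower (2.84% and 4.79% of all genes). Without non-responder replicate 1 the counts at that p were 3 higher and 4 lower (7.43% and 9.12% of all genes). Sult3a1 (ENSMUSG00000069668, mm10 chr10:33863935-33879475), a sulfotransferase typical of female liver, stood at 7.62 and 19.7 CPM in the responders and at 99.6, 139, 81.5 and 93.8 CPM in the non-responders (log2 fold change -2.92 ± 0.44, SE, edgeR adjusted p = 0.514). It was at most 0.202 CPM in the responders with low Afp. With those libraries as a group of their own in the model its adjusted p by edgeR was 0.0570, which does not pass. That group was cut by Afp, so its spread may be too small for genes that vary with Afp. Cyp2a4, a female-typical steroid hydroxylase, stood at 21.7 and 26.2 CPM against 71.0, 78.2, 81.8 and 49.2 CPM. A1bg (ENSMUSG00000022347, mm10 chr15:60917589-60921270), another female-typical gene, stood at 1.13 and 3.09 CPM against 352, 182, 58.04 and 30.05 CPM. All 3 separated the groups, and A1bg had the widest range among non-responders.

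Several genes of growth hormone action and male-typical genes stood higher. Igfals, the subunit that stabilises circulating IGF-I, stood at 100.02 and 116 CPM in the responders and at 28.6, 27.8, 56.2 and 55.4 CPM in the non-responders. Igf1 stood at 432 and 632 CPM against 106, 160.5, 400.2 and 373 CPM. Hsd3b5, a male-typical steroid dehydrogenase, stood at 130.4 and 135 CPM against 2.35, 4.70, 60.5 and 84.8 CPM. Igf1 and Hsd3b5 were lowest in non-responder replicates 1 and 2. Igfbp1, an insulin-repressed binding protein, stood at 103 and 111 CPM against 587, 1021, 134 and 218 CPM, and Igfbp2 at 116 and 104 CPM against 78.3, 44.2, 38.6 and 29.4 CPM. Without non-responder replicate 1 the list had 13 genes above and 5 below the other 3 (19.1% and 20.1% of all genes).

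**Figure D5:**
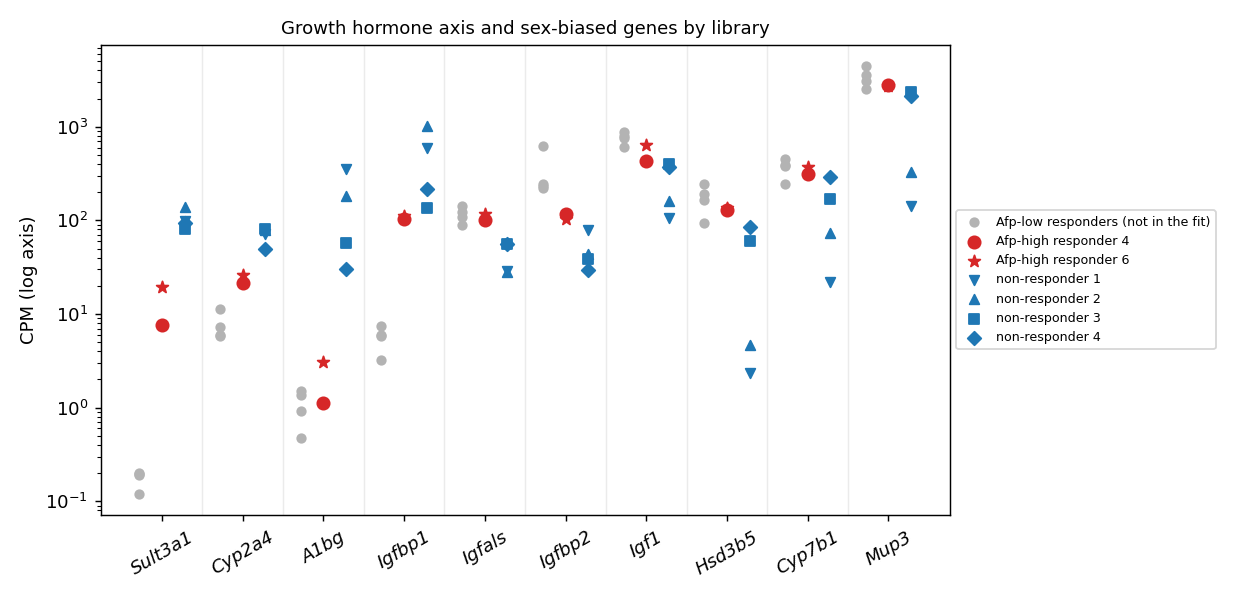
CPM (log axis) of growth hormone axis and sex-biased genes in each library, with red for the 2 Afp-high responders, blue for the 4 non-responders by replicate and grey for the 4 responders with low Afp. Sult3a1, Cyp2a4, A1bg and Igfbp1 stand lower in both Afp-high responders than in every non-responder, and the other 6 genes stand higher, with non-responder replicates 1 and 2 lowest in Igf1, Hsd3b5, Cyp7b1 and Mup3.

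Oncofetal genes are related to the marker that chose the libraries. Leaving Afp out, 7 of 19 tested genes of the fetal liver and carcinoma list stood below every non-responder (10.6% of all genes did) and 0 above. At an unadjusted p under 0.05 by edgeR, 6 were lower (4.79% of all genes were). Akr1c18, an aldo-keto reductase, stood at 32.1 and 25.9 CPM in the responders and at 47.4, 60.2, 57.9 and 57.7 CPM in the non-responders. Ly6d, a surface protein, stood at 31.7 and 67.3 CPM against 321, 471, 142 and 115 CPM. Both were under 1 CPM in the responders with low Afp. Glypican-3 (Gpc3), a surface proteoglycan of hepatocellular carcinoma, overlapped between the groups, at 86.4 and 120 CPM against 109, 494, 152 and 203 CPM. Igf2 stood at 0.805 and 1.10 CPM against 15.7, 4.62, 0.876 and 0.903 CPM, and Dlk1, a fetal surface ligand, at 3.11 and 5.999 CPM against 2.28, 1.41, 1.67 and 3.96 CPM.

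β-catenin target genes overlapped for the most part. Glul, glutamine synthetase, stood at 1014 and 452 CPM in the responders and at 507, 311, 1119 and 1677 CPM in the non-responders. Axin2, the feedback inhibitor of Wnt signalling, stood at 27.4 and 13.9 CPM against 16.7, 17.7, 22.7 and 36.6 CPM, and Lgr5 at 17.2 and 11.9 CPM against 13.2, 27.5, 20.5 and 29.8 CPM. The groups overlapped in all 3 genes, and responder replicate 4 was above replicate 6 in each. Ctnnb1 itself stood at 389 and 374 CPM against 339 to 677 CPM, and Met at 85.6 and 91.8 CPM against 42.1 to 118 CPM. Of 28 genes 3 stood above and 4 below every non-responder, near the 11.5% and 10.6% of all genes. The transporter Slc13a3 was lower without overlap, at 59.3 and 51.5 CPM against 83.9 to 149 CPM. Among 23 tested MET signalling genes 1 stood above and 5 below (11.5% and 10.6% of all genes did).

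Cell cycle genes were lower in part. Of 38 proliferation genes 14 stood below every non-responder (10.6% of all genes did) and 0 above, and the median log2 fold change was -0.69. Plk1, a mitotic kinase, stood at 1.56 and 0.896 CPM in the responders and at 3.47, 4.49, 2.83 and 3.13 CPM in the non-responders. Cdk1 stood at 4.45 and 3.98 CPM against 6.21 to 9.06 CPM. The mitotic genes Ube2c, Cdca3 and Aurkb also did not overlap, while the replication genes Pcna and Mcm4 did. Mki67, the standard marker of cycling cells, stood at 25.2 and 19.3 CPM against 16.2, 39.0, 36.5 and 34.8 CPM and overlapped only through non-responder replicate 1. Without that library 29 genes of the list stood below the other 3 non-responders (20.1% of all genes). Cdkn1a, a cell cycle inhibitor and p53 target, stood at 8.96 and 6.30 CPM against 28.8, 32.7, 14.8 and 14.9 CPM, and 9 of 22 p53 targets stood below every non-responder (10.6% of all genes did) and 3 above, near the 11.5% of all genes.

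Genes of fatty acid oxidation and the respiratory chain stood higher in part. Of 24 fatty acid oxidation genes 13 stood above every non-responder (11.5% of all genes did) and 0 below (10.6%). Of 22 respiratory chain genes 12 stood above and 0 below, and the medians of the lists were 0.43 and 0.34. Without non-responder replicate 1, fatty acid oxidation had 15 above and 2 below, and the respiratory chain 16 and 0 (19.1% and 20.1% of all genes). The medians were then 0.33 and 0.28. Acot1, a peroxisome proliferator-induced thioesterase, stood at 11 and 14.1 CPM in the responders and at 2.32, 1.63, 3.42 and 4.04 CPM in the non-responders (log2 fold change 2.13 ± 0.35, SE, edgeR adjusted p = 0.514). Ehhadh, an enzyme of peroxisomal oxidation, stood at 370.1 and 545 CPM against 60.4, 146, 224 and 219.9 CPM. Both separated the groups. Cyp4a14, induced by the same receptor, differed between the 2 responders, at 25.3 and 129 CPM against 18.3, 12.2, 3.04 and 4.49 CPM. In the P450 list of 31 genes 11 stood above and 2 below, and in the periportal list of 19 genes 6 and 1 (11.5% and 10.6% of all genes did). Insig1, a sterol-controlled regulator of cholesterol synthesis, stood at 449 and 468 CPM against 228 to 288 CPM.

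The remaining higher genes among the 12 with the smallest p were Mup-ps17, a major urinary protein pseudogene with near-identical relatives, Ankrd55, Bach2, Abcc3, Arhgap32, Gjb2 and BC021891. Abcc3, an organic anion exporter, stood at 198 and 193 CPM in the responders and at 43.9, 63.9, 90.7 and 88.3 CPM in the non-responders. Bach2, a transcriptional repressor of lymphocytes, stood at 26.3 and 25.7 CPM against 12.8, 12.6, 11.1 and 14.5 CPM. Gjb2, a connexin of hepatocytes, stood at 274 and 328 CPM against 118, 118, 139 and 178 CPM. None of these 3 overlapped, and Abcc3 was 220.3 to 366 CPM in the responders with low Afp.

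Erythroid genes stood lower. Of 10 tested, 6 stood below every non-responder (10.6% of all genes did), and DESeq2 called 2 lower (0.7% of all genes were). The median log2 fold change was -1.37, with a summed level of 111 to 119 CPM in the responders against 153 to 299 CPM. Hbb-bt, a beta globin, stood at 12.8 and 11.8 CPM against 27.7, 39.96, 28.8 and 18.8 CPM. Some other erythroid genes were near the limit of counting in the responders. Such genes can pass the filter on low counts through the non-responders alone. The remaining lists had fewer separated genes. Their counts stand beside the 11.5% of all genes above every non-responder and the 10.6% below. Of 31 stellate cell and matrix genes 2 stood above and 5 below, and of 18 endothelial genes 1 below. Sparc, a matrix protein, stood at 161 and 179 CPM against 493, 702, 237 and 270.4 CPM. Of 36 ribosomal protein genes 7 stood below with a median of -0.17, which became 0.005 without non-responder replicate 1. Of 20 immediate early genes 0 stood above and 4 below, of 22 glycolysis genes 0 and 5, of 18 antioxidant genes under NRF2 3 and 2, of 24 genes of fatty acid and cholesterol synthesis 3 and 0, and of 20 hepatocyte identity genes 4 and 3.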

How the data were processed

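RNA sequencing of 11 mouse livers was deposited as raw counts for genes and exons. The files also hold RPKM values computed by the authors, which enter no result. The labels' protocols give TRIzol extraction and TruSeq libraries, and the submitters' processing notes name FastQC and mm10. Aligner, counter and strandedness were not given in the sources used here, so near-identical families (Gbp, Mup, Cyp2a, Cyp4a, H2, Oas1, Hamp, Acot and immunoglobulin genes) and overlapping genes are uncertain. Of 109 named genes, 2 share at least 10% of their exon bases with another gene.

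Gene counts were fitted with edgeR 4.0.16 (R 4.3.3; TMM scaling, filterByExpr, quasi-likelihood test, 2-sided, Benjamini-Hochberg adjustment over all genes tested, threshold 0.05). The filter can pass a gene with low counts through the libraries of 1 group alone, which favours separated groups among such genes. CPM values are TMM-scaled over all 11 libraries, except the Afp shares that chose the libraries. DESeq2 1.42.0 and limma 3.58.1 were alternatives, beside other scalings, filters, sample sets and leaving out each library. The test was checked on simulated data. Counts of any 2 replicates of a group differed by more than sampling noise. Members and lists were chosen with earlier results of these data known. The rule named the 12 genes with the smallest p in each direction whose groups do not overlap (average log2 CPM of at least 1, no predicted genes), a set of fixed genes and the 3 members of each list with the smallest p. Other genes named were chosen after their values were seen, to show roles within a list. Promoters come from RefSeq (GRCm38.p6). Labels give no replicate numbers, so numbers follow accession order and pair nothing. Some genes are not reported here.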

Additional observations from a re-analysis of the deposited data

Results flagged for a closer look

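With 109 named genes checked in the 4 non-responders, 9 had 1 library far from the other 3 (a gap of more than 0.829 of the group's range), and chance flags about 1 in 20 groups. BC021891 was lowest in replicate 2 (3.43 CPM, next 4.39 CPM, gap 0.905). Cdca3 was lowest in replicate 4 (7.25 CPM, next 8.35 CPM, gap 0.916). Cp was highest in replicate 2 (4641 CPM, next 2521 CPM, gap 0.941). Emr1 was lowest in replicate 1 (0.912 CPM, next 17.1 CPM, gap 0.903). Klrb1b was highest in replicate 2 (27.2 CPM, next 4.74 CPM, gap 0.907). Psmb8 was highest in replicate 4 (92.7 CPM, next 68.3 CPM, gap 0.840). In replicate 3, Igj was highest (4.17 CPM, next 1.28 CPM, gap 0.834), as was Igkc (12.7 CPM, next 5.002 CPM, gap 0.922), and Uba7 was lowest (24.8 CPM, next 34.4 CPM, gap 0.846).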

How the results depend on the processing

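The count of called genes was 0 with all 6 libraries under edgeR with each scaling, filter and threshold tried, in the model with the low-Afp responders as a group of their own and with Afp as a covariate. It was 164 with DESeq2, 14 with limma-voom with quality weights, and 1748 when all 10 treated libraries were compared by label alone. Leaving out each library in turn gave 0 to 1 called genes, the 1 without responder replicate 4. At an unadjusted p under 0.05 there were 1396 genes, 3320 with quality weights, 2200 with 3 groups in 1 model, 4803 by label alone, and 510 to 2968 when 1 library was left out (lowest without responder replicate 4, highest without non-responder replicate 1). With upper quartile scaling, 446 genes were higher and 976 lower. Sign changes were found in genes with small or uncertain folds. Met went from -0.07 to 0.044 with limma-voom and to 0.092 by label alone, and ranged from -0.30 to 0.065 when 1 library was left out (0.0083 without non-responder replicate 3). Cd3e became -0.17 with quality weights and -0.23 by label alone, and ranged from -0.18 to 0.41 (negative without responder replicate 6, non-responder replicate 1 or 2). Cela1 became -0.068 and -0.047 in those fits, and ranged from -0.17 to 0.54 (negative without responder replicate 4). Axin2 and Gpc3 became 0.066 and 0.21 with the Afp covariate, and Dlk1, Emr1 and Mzb1 became -0.64, 0.11 and -0.26 by label alone. When 1 library was left out, Glul ranged from -1.001 to 0.18, Axin2 from -0.76 to 0.22 and Cd8a from -0.64 to 0.26. They were positive for Glul and Axin2 without responder replicate 6 (0.16 and 0.22) or non-responder replicate 4 (0.18 and 0.10), and for Cd8a without responder replicate 6 (0.059) or non-responder replicate 3. The median of the β-catenin list ranged from -0.50 (without responder replicate 4) to 0.077 (without responder replicate 6), and that of the hepatocyte identity list was -0.0130 without responder replicate 6. The cause of these changes was not tested. No paired analysis was possible because the labels give no replicate numbers. With 2 responder libraries, differences under the spread between libraries were not detectable, and genes under 1 CPM rest on few reads.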
